A study of Mus musculus with 21 samples.

Results

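The 10 epithelial genes Krt4, Krt5, Krt8, Krt14, Krt15, Krt18, Krt19, Epcam, Cdh1 and Trp63 were followed in mouse embryonic tissue as genes that mark epithelium in libraries that their labels describe as cranial neural crest cells (CNCCs). They were taken by gene symbol, 10 of the 24594 genes in each of the 2 count tables, and all 10 were present in both. In the genotype series, the second pharyngeal arch (PA2) and the third (PA3) of embryos at embryonic stage E10.5 were micro-dissected, either wild-type (WT) or homozygous for a deletion of HIRE1, a long-range enhancer region of Hoxa2 (HIRE1del/del), on a mixed C57Bl/6J and CD1 background, and no cell sorting was stated for them. In the stage series, RFP-positive cells of Wnt1::Cre;ROSA-RFP embryos, which carry no HIRE1 deletion, were isolated by sorting, at E10.5 out of PA2 and at E12.5 or E14.5 out of the pinna (the external ear, a PA2 derivative). The 7 groups each held 3 libraries, stated to be independent biological replicates. Wnt1::Cre marks the descendants of cells that once expressed Cre in the dorsal neural tube, so the sorted groups hold what carried the reporter and passed the sort, while the dissected arches hold every cell type of the arch. E10.5 and E12.5 tissue was dissociated with trypsin and E14.5 tissue with papain, so stage and enzyme cannot be told apart at E14.5.

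Keratins are intermediate filament proteins that assemble as pairs of a type II and a type I chain, and the pair in use marks the kind of epithelium. Krt8 (type II) with Krt18 and Krt19 (type I) form the filaments of simple, single-layered epithelia, Krt5 (type II) with Krt14 and Krt15 (type I) those of the basal layer of stratified epithelia, and Krt4 (type II) is found in the upper layers of internal stratified epithelia. Epcam and Cdh1 (E-cadherin) hold epithelial cells together, and Trp63 (p63) is the transcription factor needed to form stratified epithelium. In a pharyngeal arch, surface ectoderm covers the outside, endoderm lines the inside, and neural crest mesenchyme fills most of the core.

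The 7 keratins lie in both mouse keratin clusters (GRCm38, GENCODE M21). The type II genes Krt5 (chr15:101707070-101712898), Krt4 (chr15:101918535-101924735) and Krt8 (chr15:101996698-102004482) are on the minus strand, and the type I gene Krt18 (chr15:102028180-102032027), on the plus strand, lies 23.7 kb from Krt8. The type I genes Krt15 (chr11:100131758-100135928), Krt19 (chr11:100140810-100148665) and Krt14 (chr11:100203162-100207548) are on the minus strand of chromosome 11, with 4.88 kb between Krt15 and Krt19. Epcam (chr17:87635979-87651129), Cdh1 (chr8:106603351-106670246) and Trp63 (chr16:25683763-25892102) are on plus strands. In the annotation, exons of Krt5 shared 129 bases (5.87% of its exonic length) with a miRNA gene on the opposite strand and those of Krt8 shared 101 bases (5.16%) with a lincRNA on the opposite strand, so counts of these genes are uncertain to that extent. Krt8 also has a processed pseudogene, between which and Krt8 reads may have been split.

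Promoter sequences are shown for 3 of the genes because Krt18 and Epcam stood higher and Krt5 lower in PA3 than in PA2, and the other way round at E14.5 against E12.5. They are the bases upstream of the start in RefSeq (GRCm38.p6), where 5 of the 10 genes were matched, with bases annotated as exonic left out, each read 5′ to 3′ on the gene's strand. Capitals mark CAGGTG or its reverse complement CACCTG, the E-box bound by the Zeb and Snai repressors of epithelial genes. The windows are chr15:102027966-102028179 on the plus strand for Krt18, chr17:87635729-87635978 on the plus strand for Epcam and chr15:101712906-101713155 on the minus strand for Krt5. The RefSeq start of Krt14 used in the table lies inside the GENCODE gene, so no promoter is shown or described for Krt14.
Krt18: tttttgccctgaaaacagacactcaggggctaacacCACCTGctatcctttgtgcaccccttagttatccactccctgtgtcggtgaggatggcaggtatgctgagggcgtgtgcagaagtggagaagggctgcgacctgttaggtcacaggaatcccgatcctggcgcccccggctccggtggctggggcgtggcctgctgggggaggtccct
Epcam: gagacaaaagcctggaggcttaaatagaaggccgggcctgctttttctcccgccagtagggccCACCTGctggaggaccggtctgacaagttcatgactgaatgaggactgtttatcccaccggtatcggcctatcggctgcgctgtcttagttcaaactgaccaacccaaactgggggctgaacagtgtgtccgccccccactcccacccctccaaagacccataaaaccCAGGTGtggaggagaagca
Krt5: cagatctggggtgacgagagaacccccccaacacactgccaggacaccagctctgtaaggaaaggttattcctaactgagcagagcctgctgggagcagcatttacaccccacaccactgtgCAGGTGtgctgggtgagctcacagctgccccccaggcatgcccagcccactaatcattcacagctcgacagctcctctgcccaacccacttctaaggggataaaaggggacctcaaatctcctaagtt
The E-box was found 2 times in the Epcam window, 1 time each in the Krt18 and Krt5 windows and 1 time in the 250 bases before the Krt8 start. The RefSeq start of Krt8 also lies inside the GENCODE gene. With the exonic part left out, the remaining 110 bases of Krt8 held no E-box. Of 32851 promoters of 250 bases, 17.2% held the E-box on either strand. TATAAA, held by 12.4% of promoters, was in none of the windows of Krt5, Krt8, Krt18 and Epcam. GCCNNNGGC, a shortened form of the AP-2 motif held by 13.7% of promoters, was found 1 time, in the Krt18 window. A match to 6 or 9 letters is a description of the sequence, not a binding site.

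The libraries of the genotype series held 25804446 to 32210131 counts and those of the stage series 25814151 to 49058941, so that 3 counts, taken as the limit of a count of 0, stood for 0.0924 to 0.117 CPM in the former and 0.0631 to 0.111 CPM in the latter. Levels are counts per 1000000 (CPM) scaled by the trimmed mean of M-values (TMM) method, and levels of different genes are compared only per kb of exonic length. Hoxa2, the gene that HIRE1 regulates, stood at 73.4 to 84.2 CPM in PA2 WT and 4.75 to 7.09 CPM in PA2 HIRE1del/del, and at 56.1 to 65.1 and 22.1 to 25.6 CPM in PA3, without overlap between genotypes in either arch. The dissected arches held markers of several cell types: in PA2 WT, the summed level of 6 endothelial genes was 273.1 to 290.1 CPM, of 6 erythroid genes 1526 to 2395 CPM and of 4 leukocyte genes 20.8 to 24.7 CPM. In the sorted PA2 cells the same sums were 7.03 to 9.74, 1.84 to 7.48 and 0.425 to 0.602 CPM. All 12 mesenchymal genes reached 1 CPM in at least 1 library, both there and in PA2 WT. The sum of 5 neuronal genes was not lower in the sorted cells, at 34.1 to 39.6 CPM against 24.9 to 28.5 CPM in PA2 WT. Most of this sum was Tubb3, at means of 31.4 and 18.7 CPM, and Elavl3, Stmn2 and Neurod1 stayed under 1 CPM in both groups. By the endothelial, erythroid and leukocyte sums, the CNCC label described the sorted cells more closely than the dissected arches. In the arches, fewer cells of a type and less RNA per cell cannot be told apart.

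Dissected PA2 carried all the epithelial genes except Krt4, and the simple-epithelium genes led. Krt18 was measured at 54.4, 45.4 and 44.5 CPM in the 3 PA2 WT libraries, its partner Krt8 at 41.2, 40.2 and 36.7 CPM, and the other simple keratin, Krt19, at 9.41, 10.1 and 9.39 CPM. The adhesion genes were of the same order, with Epcam at 58.2, 48.5 and 48.4 CPM and Cdh1 at 46.4, 45.5 and 48.3 CPM, and Trp63 stood at 40.3, 35.2 and 36.4 CPM. These 6 genes varied by at most 1.22 times between the PA2 WT libraries. The basal keratins were lower and less even. Krt5 was at 2.05, 4.84 and 5.17 CPM, Krt15 at 2.59, 6.10 and 3.42 CPM and Krt14 at 1.16, 1.58 and 1.23 CPM, with replicate 1 lowest for all 3. Their means per kb of exon were 2.29 (Krt15), 1.83 (Krt5) and 0.753 CPM (Krt14), against 4.45 CPM for Trp63, the lowest of the 6 genes. Krt4 had 1 count in replicate 1 and none in replicates 2 and 3.

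Per kb of exon, the order of mean levels was Krt18, Epcam, Krt8, Cdh1, Krt19, Trp63, Krt15, Krt5, Krt14 and Krt4 in each of the 4 dissected groups. In PA2 WT, Krt18 stood at 33.5 ± 3.83, Epcam at 23.6 ± 2.58, Krt8 at 20.1 ± 1.21 and Cdh1 at 10.2 ± 0.317 CPM per kb (mean ± SD, n = 3). Krt19 followed at 5.20 ± 0.229 and Trp63 at 4.45 ± 0.318 CPM per kb. The ranges of neighbours in this order did not overlap in PA2 WT, except those of Krt15 and Krt5. Epcam and Krt8 overlapped in the other 3 dissected groups, Krt19 and Trp63 in both HIRE1del/del groups, Krt18 and Epcam in PA3 HIRE1del/del, and Krt5 and Krt14 in PA2 HIRE1del/del. The Krt18 to Krt8 ratio per kb was 1.54 to 1.80 in PA2 WT and 1.38 to 1.42 in PA3 WT, so that the type I chain had more RNA than its type II partner in every library.

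**Figure D1:**
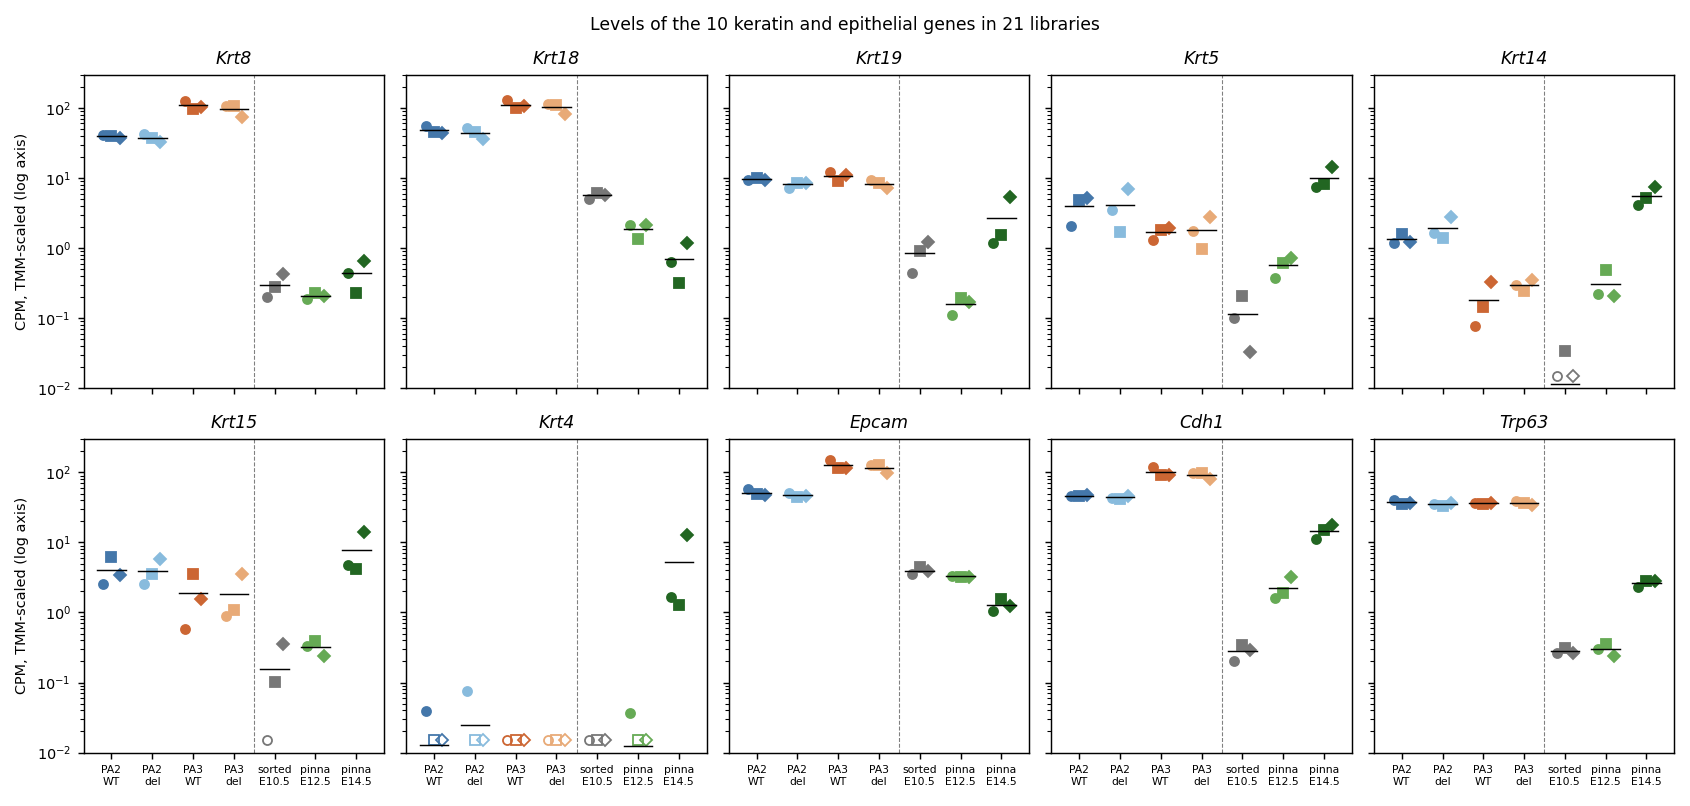
Level of each of the 10 epithelial genes in all 21 libraries (vertical axis, TMM-scaled CPM on a log scale; horizontal axis, the 7 groups). Circles, squares and diamonds are replicates 1, 2 and 3, open symbols at the bottom are libraries with no count, and black lines are group means. Krt8, Krt18, Epcam and Cdh1 stood higher in the 6 PA3 libraries than in the 6 PA2 libraries, and Krt4 was above 1 CPM in the 3 pinna E14.5 libraries alone.

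The first comparison asked whether loss of HIRE1 altered the epithelial genes in either arch. None of the 9 genes tested passed the threshold, an adjusted p under 0.05 in edgeR's quasi-likelihood test with Benjamini-Hochberg adjustment over all 14383 genes tested, in PA2, where 0.438% of all genes did, or in PA3, where 0.216% did. Krt4, with at most 2 counts in any of these 12 libraries, was not tested. At an unadjusted p under 0.05 there was no gene in PA2 and 1 in PA3, Krt19, and DESeq2's Wald test and limma-voom also called 0 in both arches. The median log2 fold change of the 9 genes was -0.08 in PA2 and -0.13 in PA3, against -0.00829 and -0.00187 over all genes tested.

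Krt19 had the smallest p-values of the 9 in the genotype comparison. In PA2 HIRE1del/del it was measured at 7.29, 8.57 and 8.35 CPM, all 3 below the lowest PA2 WT library at 9.39 CPM. In PA3 it was at 12.2, 9.18 and 11 CPM in WT and 9.28, 8.39 and 7.09 CPM in HIRE1del/del, where 1 mutant library lay above the lowest WT library. The log2 fold changes were -0.26 (SE 0.132, adjusted p = 0.636) in PA2 and -0.39 (SE 0.131, adjusted p = 0.371) in PA3. Krt14 had the largest differences, log2 0.54 (SE 0.325, adjusted p = 0.699) in PA2, where the mutants stood at 1.65, 1.40 and 2.73 CPM, and log2 0.66 (SE 0.534, adjusted p = 0.725) in PA3. The log2 fold changes of the other 7 genes lay between -0.19 and 0.10 in both arches.

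For the keratin pair Krt8 and Krt18, the adhesion genes and Trp63, the genotypes overlapped in PA2. Krt8 was measured at 42.9, 36.9 and 32.5 CPM and Krt18 at 51.2, 45.6 and 35.6 CPM in PA2 HIRE1del/del. Epcam was at 50.5, 44.6 and 45.9 CPM, Cdh1 at 43.6, 42.1 and 46.7 CPM and Trp63 at 34.9, 33.3 and 37.2 CPM. A difference between the arches in the effect of genotype was found for 0 of the 9 genes, with 0 at an unadjusted p under 0.05 and 0 by DESeq2 and limma-voom. The differences of log2 fold changes were between -0.12 and 0.13, and 0.0487% of all genes passed this interaction test. Of the 92 genes tested in the 13 other lists described below, edgeR called 0 for genotype in either arch and 0 for the interaction, where 8 in PA2, 13 in PA3 and 6 for the interaction had an unadjusted p under 0.05. Calls by DESeq2 and limma-voom were counted for the 10 epithelial genes and not for these lists.

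The second comparison set PA3 against PA2. Krt8, Krt18, Epcam and Cdh1 were higher in PA3, Krt14 was lower, and Trp63 stood at the same level in both arches. Krt8 was measured at 125.8, 95.9 and 104.7 CPM in PA3 WT, and Krt18 at 130.7, 99.1 and 105.7 CPM. Every PA3 WT library lay above every PA2 WT library for both genes. The log2 fold changes over PA2 WT were 1.47 (SE 0.143, adjusted p = 6.91e-06) for Krt8 and 1.22 (SE 0.149, adjusted p = 4.61e-05) for Krt18. Epcam, at 148.6, 117.1 and 115.5 CPM, and Cdh1, at 117.8, 92.6 and 92.9 CPM, did not overlap PA2 WT either, with log2 fold changes of 1.30 (SE 0.12, adjusted p = 4.4e-06) and 1.11 (SE 0.098, adjusted p = 3.12e-06).

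Krt19, the other simple keratin, did not move with Krt8 and Krt18. Its PA3 WT libraries, at 12.2, 9.18 and 11 CPM, overlapped those of PA2 WT, and its log2 fold change was 0.16 (SE 0.129, adjusted p = 0.35). Trp63, at 37.0, 35.9 and 36.5 CPM in PA3 WT, gave a log2 fold change of -0.03 (SE 0.0691, adjusted p = 0.753), with a spread in PA3 WT of 0.510 CPM (SD, n = 3). Set against Cdh1 per kb, Trp63 was 0.41 to 0.473 in PA2 WT and 0.171 to 0.214 in PA3 WT, without overlap.

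Of the basal keratins, Krt14 was called and was lower in PA3. It had 2, 4 and 10 counts in the PA3 WT libraries, or 0.0765, 0.143 and 0.322 CPM, and all 3 lay below the PA2 WT libraries. Its log2 fold change was -2.80 (SE 0.436, adjusted p = 0.000281), or -3.52 without PA3 WT replicate 3, and it passed the filter on low counts only through PA2, so that a lower level in PA3 was a condition of being tested. Krt5 was at 1.30, 1.82 and 1.93 CPM and Krt15 at 0.574, 3.501 and 1.54 CPM in PA3 WT. Neither passed the threshold, with log2 fold changes of -1.26 (SE 0.491, adjusted p = 0.0609) and -1.10 (SE 0.585, adjusted p = 0.159), although all 3 PA3 WT libraries of Krt5 lay below PA2 WT.

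The replicate number mattered for both of these genes. In replicate 1 of WT, Krt5 and Krt15 were lowest in both arches, and in replicate 3 of HIRE1del/del they were highest in both arches, so that PA2 and PA3 of 1 number stood high or low together. With the replicate number as a block, Krt5 fell by 1.21 (SE 0.209, adjusted p = 0.000626) and Krt15 fell by 1.22 (SE 0.261, adjusted p = 0.00268) on the log2 scale from PA2 WT to PA3 WT. In HIRE1del/del the blocked differences were -1.11 (SE 0.212, adjusted p = 0.00142) for Krt5 and -1.23 (SE 0.264, adjusted p = 0.003) for Krt15. The block called 7 of the 9 genes in each genotype, where it called 42.4% of all genes in WT and 39.1% in HIRE1del/del. Leaving out PA2 WT replicate 1 brought Krt5 to an adjusted p of 0.0291, and leaving out PA3 WT replicate 2 brought Krt15 to 0.0408.

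The HIRE1del/del arches gave the same 5 calls. Krt8, at 107.1, 106.0 and 73.7 CPM in PA3 HIRE1del/del, had a log2 fold change of 1.35 (SE 0.144, adjusted p = 1.41e-05) over PA2 HIRE1del/del. Krt18, at 112.1, 111.1 and 82.3 CPM, had 1.21 (SE 0.15, adjusted p = 5.51e-05), and in both genes the lowest PA3 library, replicate 3, still lay above all PA2 libraries. Epcam had 1.31 (SE 0.12, adjusted p = 4.65e-06) and Cdh1 1.07 (SE 0.0985, adjusted p = 4.65e-06), and Krt14, with 8, 7 and 10 counts in PA3, fell by 2.68 (SE 0.395, adjusted p = 0.000198) on the log2 scale. Krt5, at -1.17 (SE 0.49, adjusted p = 0.083), and Krt15, at -1.11 (SE 0.589, adjusted p = 0.169), did not pass without the block, but Krt5 did without PA2 HIRE1del/del replicate 2 (adjusted p = 0.0235), and both did without PA3 HIRE1del/del replicate 3 (adjusted p = 0.0435 for Krt5 and 0.0281 for Krt15).

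Arch calls were common among all genes. Of the 14383 genes tested, 36.5% were called between PA3 WT and PA2 WT, 19.1% higher and 17.4% lower in PA3, beside 4 epithelial genes higher and 1 lower of 9. In HIRE1del/del, 33.4% were called, 18.7% higher and 14.7% lower, beside the same 4 and 1. The median log2 fold change of the 9 genes was 0.16 in WT and 0.06 in HIRE1del/del, against -0.00065 and -0.000153 over all genes.

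**Figure D2:**
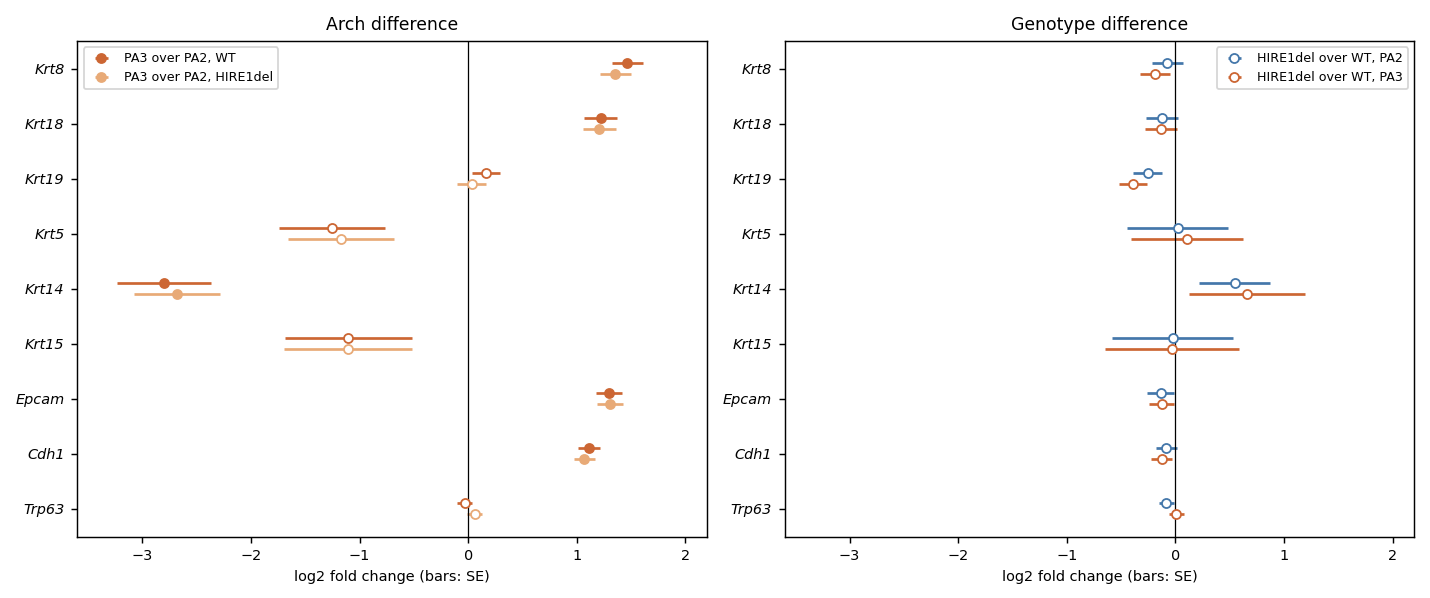
Log2 fold changes of the 9 epithelial genes tested in dissected arches, with bars of 1 standard error. The left panel shows PA3 over PA2 in WT and in HIRE1del/del and the right panel HIRE1del/del over WT in PA2 and in PA3, with filled symbols for an adjusted p under 0.05. Krt8, Krt18, Epcam and Cdh1 lie between 1.07 and 1.47 on the left, Krt14 lies below -2.6, and no symbol is filled on the right.

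Other epithelial genes were followed in lists of regulators, junction proteins, basement membrane attachment, and surface proteases and trafficking. Of 17 junction genes tested, 15 were higher in PA3 WT and 2 lower, with a median log2 fold change of 1.08. The largest difference was that of Dsg3, a desmosomal cadherin, at 2.27 CPM in PA3 WT and 0.0246 CPM in PA2 WT (0.652 CPM in PA3 HIRE1del/del), followed by the polarity protein gene Crb3 (log2 1.79) and the tight junction gene Cldn3 (log2 1.78), while Pkp1, a desmosomal plaque gene of stratified epithelium, fell by 2.02. Dsg3 passed the filter on low counts only through PA3 and Pkp1 only through PA2, so these directions were a condition of being tested. All 7 genes of the protease and trafficking list were higher, led by the membrane protease gene Prss8 (log2 1.86) and Rab25 (log2 1.43), a GTPase of epithelial vesicle transport. Of 10 regulators tested, 6 were higher and none lower, among them Grhl1 (log2 1.74), Ovol1 (log2 1.10), the splicing factor gene Esrp1 (log2 0.99) and Klf5 (log2 0.81). Of 9 basement membrane genes, 4 were higher, among them the laminin chains Lama3 (log2 1.65) and Lama5 (log2 0.77) and the integrin Itgb4 (log2 0.42). In HIRE1del/del the counts of genes higher and lower were 13 and 1 of 17 for junctions, 6 and 0 of 7 for proteases and trafficking, 5 and 0 of 10 for regulators and 5 and 1 of 9 for basement membrane attachment.

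Markers of other cell types also differed between the arches. Genes of the pharyngeal endoderm were higher in PA3 WT in 5 of 6 tested, with the parathyroid regulator Gcm2 at log2 5.18, Pax1 at log2 2.14, Foxa2 at log2 1.40 and Foxa1 at log2 1.36. Gcm2, and 3 of the 5 neuronal genes below (Elavl3, Stmn2 and Neurod1), passed the filter only through PA3, so a higher level there was a condition of being tested. The summed level of the 9 endoderm genes was 20.4 to 24.1 CPM in PA2 WT and 61.2 to 74.5 CPM in PA3 WT, and that of the 10 epithelial genes 233.6 to 255.9 and 455.2 to 574.1 CPM. All 6 erythroid genes (summed level 1526 to 2395 CPM in PA2 WT and 12360 to 24180 CPM in PA3 WT), 5 of 6 endothelial genes (273.1 to 290.1 and 335.4 to 358.6 CPM), all 5 neuronal genes (24.9 to 28.5 and 68.3 to 118 CPM) and 2 of 4 glial and melanocyte genes (11.7 to 13.2 and 19.2 to 21.7 CPM) were also higher in PA3. Of 12 mesenchymal genes, 7 were lower, with Twist2 at log2 -1.17, Pdgfra at log2 -0.65 and Twist1 at log2 -0.64, and 2 were higher, Prrx2 and Vim. Of 5 muscle genes, Actc1 was higher and Myf5 lower, and none of 3 leukocyte genes was called (adjusted p above 0.05 in each). The part of these other cell types in the epithelial differences was not tested.

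The sorted PA2 cells of the stage series were nearly free of these genes at E10.5. Krt8 had 6, 8 and 13 counts, or 0.201, 0.275 and 0.425 CPM, Cdh1 stood at 0.201, 0.343 and 0.294 CPM and Trp63 at 0.268, 0.309 and 0.261 CPM. None of Krt5, Krt14 and Krt15 exceeded 11 counts in a library, and Krt4 had no count. The exceptions were Krt18, at 5.08, 6.18 and 5.78 CPM, and Epcam, at 3.58, 4.39 and 3.86 CPM. The 2 tables were sequenced differently, single-end against paired-end, and normalized separately, so levels across them were set side by side without a test. The mean of dissected PA2 WT was 167 times that of sorted PA2 for Cdh1, 134 times for Trp63 and 131 times for Krt8, but 13.1 times for Epcam, 11.4 times for Krt19 and 8.47 times for Krt18. Sorted PA2 held only 6, 10 and 9 counts of Cdh1 and 8, 9 and 8 of Trp63, so the ratios of Cdh1, Trp63 and Krt8 rest on few counts. The basal keratins, with few counts in the sorted cells, gave 116 times for Krt14, 35.6 times for Krt5 and 26.2 times for Krt15.

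Krt18 and Krt8, whose proteins pair, thus had very different ratios in the sorted cells. Per kb, Krt18 over Krt8 was 18.6 to 34.5 in the sorted PA2 libraries, against 1.54 to 1.80 in dissected PA2 WT, and Epcam over Cdh1 was 26.7 to 37.2, against 2.09 to 2.61. At E12.5 the ranges were 7.98 to 15.8 for Krt18 over Krt8 and 2.15 to 4.26 for Epcam over Cdh1. At E14.5 they were 1.86 to 2.41 and 0.148 to 0.212, so that Epcam stood below Cdh1 there and above it in all other groups.

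**Figure D3:**
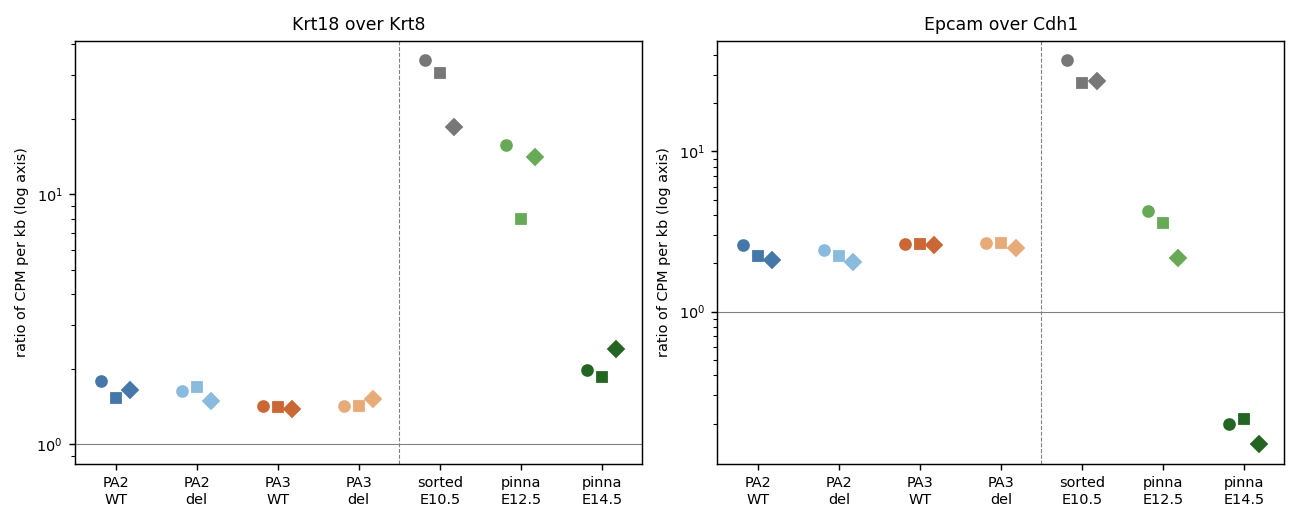
Ratio of Krt18 to Krt8 and of Epcam to Cdh1 in each of the 21 libraries (vertical axis, ratio of CPM per kb of exon on a log scale; horizontal axis, the 7 groups). Each symbol is a library. Krt18 over Krt8 lies between 1.38 and 1.80 in the 12 dissected libraries and between 18.6 and 34.5 in the 3 sorted PA2 libraries, and Epcam over Cdh1 is under 1 only in the 3 pinna E14.5 libraries.

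From sorted PA2 at E10.5 to the sorted pinna at E12.5, Cdh1, Krt5 and Krt14 rose and Krt18 and Krt19 fell. Cdh1, at 1.63, 1.89 and 3.16 CPM at E12.5, rose by log2 2.99 (SE 0.369, adjusted p = 2.45e-05), with all 3 libraries above the E10.5 libraries. Krt5 had 10, 19 and 21 counts at E12.5 and 3, 6 and 1 at E10.5 and rose by log2 2.32 (SE 0.607, adjusted p = 0.00476), or by 3.05 without E10.5 replicate 2. Krt14 went from 1 count in all 3 libraries to 27, a ratio of 27.8 with a 95% counting interval of 4.59 to 1140 (adjusted p = 0.00123), and that single count was in E10.5 replicate 2. Krt18, at 2.15, 1.339 and 2.11 CPM, fell by 1.61 on the log2 scale (SE 0.349, adjusted p = 0.00161), without overlap. Krt19, at 0.111, 0.196 and 0.170 CPM at E12.5 and 0.435, 0.892 and 1.21 CPM at E10.5, fell by 2.37 (SE 0.786, adjusted p = 0.0179), but the adjusted p was 0.0619 without E10.5 replicate 3 and 0.0559 without E12.5 replicate 1. Limma-voom called neither Krt5 (adjusted p = 0.0578) nor Krt19 (adjusted p = 0.0915) at this step.

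Epcam, at 3.34, 3.27 and 3.26 CPM at E12.5, gave a log2 fold change of -0.26 (SE 0.188, adjusted p = 0.235), although all 3 libraries lay below those of E10.5. Krt15 and Trp63 also missed the threshold, with Krt15 at 0.334, 0.392 and 0.238 CPM and Trp63 at 0.297, 0.359 and 0.238 CPM at E12.5. Krt4 had 1 count at E12.5 in 3 libraries, and Krt8, with 5, 7 and 6 counts, was not tested in the stage series because it reached 1 CPM in none of its libraries. Of the 13438 genes tested, 68.8% were called at this step, 35% higher and 33.7% lower, beside 3 epithelial genes higher and 2 lower of 9.

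From E12.5 to E14.5 the basal keratins, Cdh1 and Trp63 rose. Krt5 went from 0.371, 0.620 and 0.714 CPM to 7.40, 8.28 and 14.4 CPM (log2 4.12, SE 0.361, adjusted p = 2.12e-06), and Krt14 from 0.223, 0.490 and 0.204 CPM to 4.12, 5.15 and 7.53 CPM (log2 4.17, SE 0.391, adjusted p = 3.63e-06). Krt15 reached 4.71, 4.12 and 14.3 CPM (log2 4.57, SE 0.655, adjusted p = 9.36e-05, or log2 3.76 without E14.5 replicate 3). Every E14.5 library of these 3 genes lay above every E12.5 library. Trp63 reached 2.29, 2.84 and 2.78 CPM (log2 3.13, SE 0.264, adjusted p = 1.57e-06) and Cdh1 11.1, 15.1 and 17.6 CPM (log2 2.71, SE 0.251, adjusted p = 3.33e-06).

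Krt4 and Krt19 rose with them, and the size of their rise, though not its direction, depended on 1 library. Krt4, with 75, 61 and 591 counts at E14.5 against 1 count at E12.5, had a ratio of 456 (95% counting interval 81.6 to 18000, adjusted p = 0.00118). Its log2 fold change of 8.46 became 6.59 without E14.5 replicate 3, and without E12.5 replicate 1, which held the single count, the E12.5 group was at 0. Krt19 reached 1.17, 1.56 and 5.43 CPM (log2 4.05, SE 0.717, adjusted p = 0.000427, or log2 3.06 without E14.5 replicate 3). Replicate 3 at E14.5 was thus the highest library for Krt4, Krt15 and Krt19, and for Krt5 and Krt14 as well.

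Epcam and Krt18 fell at the same step. Epcam was at 1.06, 1.54 and 1.25 CPM at E14.5 and fell by 1.36 on the log2 scale (SE 0.196, adjusted p = 9.96e-05), while Krt18 was at 0.639, 0.315 and 1.16 CPM and fell by 1.40 (SE 0.381, adjusted p = 0.00708). All 3 E14.5 libraries of both genes lay below those of E12.5. Krt8 stayed at a few counts, with 20, 11 and 30 at E14.5 in libraries of greater depth, or 0.441, 0.231 and 0.657 CPM. All 9 genes tested were called, 7 higher and 2 lower, where 65.7% of all genes were called, 32.6% higher and 33.1% lower. Of the 7 that rose, Krt4, Krt5, Krt14, Krt15 and Trp63 had passed the filter only through E14.5, so a higher level there was a condition of being tested.

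Between E10.5 and E14.5, which reuses the groups of both steps, the same 7 genes were higher and the same 2 lower, where 82% of all genes were called, 42% higher and 40% lower. Here too, a higher level at E14.5 was a condition of being tested for Krt4, Krt5, Krt14, Krt15 and Trp63, which passed the filter only through E14.5. Cdh1 rose by log2 5.69 (SE 0.331, adjusted p = 2e-08), Krt5 by 6.44 (SE 0.459, adjusted p = 1.06e-07), Krt15 by 5.60 (SE 0.727, adjusted p = 1.94e-05) and Trp63 by 3.22 (SE 0.266, adjusted p = 3.79e-07). Without 1 sorted library, the change of Krt5 became 7.17 (replicate 2 left out) and that of Krt15 7.15 (replicate 3 left out), and that of Krt15 was 4.79 without E14.5 replicate 3. Krt14 went from 1 to 776 counts, a ratio of 502 (95% counting interval 89.8 to 19800), and Krt4, from 0 to 727 counts, was at least 157-fold higher, taking 3 counts over the E10.5 group as the floor. Of the 727 counts of Krt4, 591 were in E14.5 replicate 3, against 75 and 61 in replicates 1 and 2. That bound is therefore for the pooled counts of the group and not for each library. Krt18 fell by 3.01 (SE 0.371, adjusted p = 1.29e-05) and Epcam fell by 1.62 (SE 0.195, adjusted p = 1.06e-05). Krt19 was called at log2 1.68 (SE 0.564, adjusted p = 0.0162), but its groups overlapped, and it gave log2 0.68 (adjusted p = 0.117) without E14.5 replicate 3, an adjusted p of 0.0579 without E10.5 replicate 1, and 0.0592 in limma-voom.

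The makeup of the 10 genes' RNA thus differed with stage. As a share of their summed CPM per kb, Krt18 took 60.1% and Epcam 27.3% in sorted PA2, Epcam 36.4% and Krt18 31.3% in the pinna at E12.5, and Krt5 23%, Krt15 19.6%, Cdh1 17% and Krt14 16.4% at E14.5, where Krt18 took 2.37% and Epcam 3.28% (means of 3 libraries). In dissected PA2 WT, Krt18 took 32.8%, Epcam 23.1%, Krt8 19.8% and Cdh1 10.1%. The order of single genes at E14.5 was not resolved: each gene's range overlapped that of its neighbour, from Krt5 at 4.57 ± 1.74 CPM per kb down to Krt8 at 0.226 ± 0.109 (mean ± SD, n = 3). The summed level of the 10 genes was 9.87 to 12.7 CPM at E10.5, 8.69 to 10.3 CPM at E12.5 and 34.6 to 78.1 CPM at E14.5, all below the 217.6 CPM of the lowest dissected library of PA2.

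**Figure D4:**
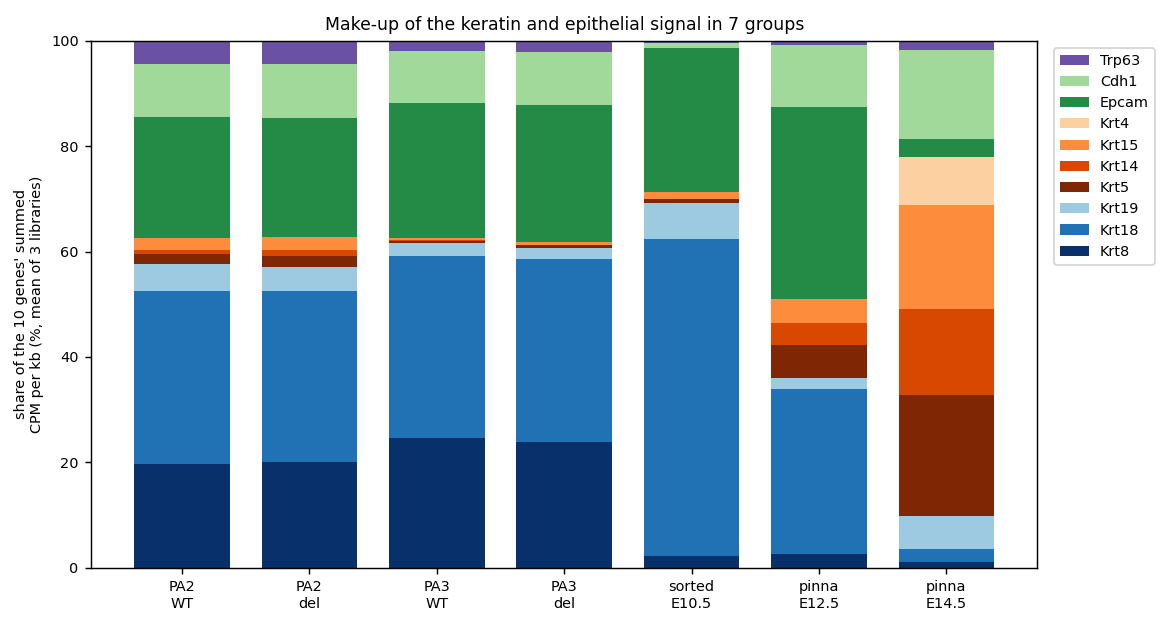
Share of each of the 10 genes in their summed CPM per kb of exon (vertical axis, percent; horizontal axis, the 7 groups, each the mean of 3 libraries). Krt18, Epcam and Krt8 fill most of the 4 dissected groups, Krt18 (60.1%) and Epcam (27.3%) fill sorted PA2, and Krt5, Krt15, Cdh1 and Krt14 fill most of the pinna at E14.5.

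Of the other 47 keratin genes in the tables, few were expressed. In the genotype series, 2 passed the filter, Krt7, a simple-epithelium keratin at 16.3 to 30.2 CPM, and Krt10, and neither was called in any comparison. In the stage series 5 passed, and all 5 were higher at E14.5 than at both earlier stages. At E12.5, Krt17 (9, 20 and 4 counts) and Krt24 (3, 1 and 3 counts) were called higher than at E10.5, where neither had a count. The counts of Krt24 at E12.5 were no more than the 3 taken as the limit of a count of 0. Of the 5, Krt1, Krt6a, Krt17 and Krt24 passed the filter only through E14.5, so that their higher level there was a condition of being tested. Krt1, the type II keratin of the layers above the basal layer in skin, was at 3.19, 3.93 and 21.2 CPM at E14.5, and its type I partner Krt10 at 7.45, 6.81 and 23 CPM. Krt6a, whose reads cannot be fully separated from those of the near-identical Krt6b, was at 1.17, 0.463 and 6.94 CPM and had no count in the other stage libraries, Krt17 was at 2.29, 2.25 and 3.39 CPM and Krt24 at 1.32, 1.18 and 1.25 CPM. Replicate 3 was highest for 4 of these 5 genes, all but Krt24. The summed level of the 47 keratins at E14.5 was 18.8, 16.9 and 64.6 CPM.

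The lists of other epithelial genes were mixed over the stages. At E14.5 against E12.5, 7 of 11 junction genes tested rose, with Ppl (log2 4.74), Pkp1 (log2 4.40), Dsp (log2 3.88) and Perp (log2 2.85) of the desmosomes and cornifying layers first, and 4 fell. Of 8 basement membrane genes, 5 rose, led by Lama3 (log2 3.35) and Col17a1 (log2 3.33), a hemidesmosome collagen of basal cells, and 3 fell. Of 6 regulators tested, 4 rose, among them Grhl3 (log2 2.10) and Esrp2 (log2 1.92), and 2 fell, Elf3 (log2 -3.08) and Esrp1. Of 4 protease and trafficking genes, 2 rose, among them Prss8 (log2 0.89), and 2 fell, St14 (log2 -3.61) and Spint2 (log2 -2.58). Among the genes that rose, 3 junction genes (Ppl, Pkp1 and Pkp3), 2 basement membrane genes (Lama3 among them), 2 regulators (Grhl3 and Esrp2) and both protease and trafficking genes passed the filter only through E14.5, and St14, which fell, only through E12.5, so their direction was a condition of being tested. At E12.5 against E10.5 the counts higher and lower were 5 and 3 of 11 for junctions, 4 and 1 of 8 for basement membrane attachment, 3 and 1 of 6 for regulators and 2 and 0 of 4 for proteases and trafficking.

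Markers of other cell types also moved with stage in the sorted libraries. From E10.5 to E14.5 the summed level of 12 mesenchymal genes went from 2722 to 2973 CPM to 6565 to 6769 CPM, that of 6 endothelial genes from 7.03 to 9.74 CPM to 109.7 to 173.3 CPM, and that of 6 glial and melanocyte genes from 14.7 to 17.1 CPM to 211.9 to 258 CPM. Of the endothelial genes only Kdr was called of 5 tested, at log2 2.97 between E12.5 and E14.5 (adjusted p = 7.81e-08), and the other 4 missed the threshold. Kdr alone, at a mean of 140.9 CPM, made up most of the endothelial sum at E14.5, whose mean was 147.6 CPM. All 5 glial and melanocyte genes tested were higher at E14.5, with Dct at log2 4.02 and Mitf at log2 2.49. Erythroid sums were 1.84 to 7.48 CPM at E10.5 and 2.27 to 11.7 CPM at E14.5, neuronal sums 34.1 to 39.6 and 10.9 to 17.4 CPM, muscle sums 4.94 to 10.7 and 6.62 to 11.2 CPM, leukocyte sums 0.425 to 0.602 and 1.92 to 2.50 CPM, and endoderm sums were at most 0.275 CPM at both. At E12.5 the endoderm sum was 1.14 to 1.80 CPM, and Pax1, at a mean of 1.44 CPM, was its only gene to pass the filter and did so only through E12.5. The part of cells other than neural crest in the stage differences was not tested.

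Across the 12 dissected libraries, Krt8 and Krt18 varied together. The correlation of their log2 CPM was r = 0.994 and that of their deviations from group means was 0.939, and Krt8 and Epcam gave 0.992 and 0.864. Krt15 deviated the other way, with r = -0.867 against Krt8 and -0.89 against Krt18. These are descriptions over libraries that share arch, dissection and depth. The genes outside the set whose log2 CPM most resembled the mean of the 9 genes, over 12 libraries, were Rdh10 (r = 0.94), Psen2 (0.929), Wfs1 (0.925), Il13ra1 (0.919), Nipal2 (0.919), Fcgbp (0.917), Ptpn7 (0.911), Tspan15 (0.908), Gls2 (0.906) and Meox1 (0.903). Over the 9 stage libraries they were Cebpd (0.984), Ppl (0.984), Dmkn (0.983), Scara5 (0.982), Mir322 (0.982), Gm12992 (0.98), Snx22 (0.98), Il17rc (0.976), Jdp2 (0.975) and Vsig10 (0.975). Both means join genes that ran against each other, such as Krt8 and Krt14 in the arches (r = -0.958) and Krt5 and Epcam over the stages (r = -0.937). Likeness to such a mean is not likeness to each of its genes.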

How the data were processed

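RNA-seq counts of 21 libraries in 2 tables were used. According to the methods, the authors aligned reads to GRCm38 with QuasR and HISAT2 and deposited raw counts per gene over the exons of the UCSC knownGene annotation. The library preparation is described as unstranded while the counting is described as strand-specific, which was left unresolved, so overlapping genes on opposite strands may share reads. From these counts, TMM factors and CPM were computed with edgeR 4.0.16 in R 4.3.3. The filter kept genes that reached 1 CPM in 2 or more libraries of their table (14383 in the genotype and 13438 in the stage table). Each table was fitted as a whole by a quasi-likelihood model in which every group had its own mean, tests were two-sided, p-values were adjusted by the Benjamini-Hochberg method over all genes tested, and an adjusted p under 0.05 was called. Scripts were tested on simulated data. DESeq2 1.42.0, limma-voom (limma 3.58.1), other scalings, filters and sample sets, a replicate block and leaving out each library were tried. No 2 libraries of a group agreed within sampling noise (chi-square per degree of freedom 7.00 to 46.5). Counting intervals cover counting error only.

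Replicate numbers come from the labels. Deviations from group means of PA2 and PA3 libraries of the same number correlated at 0.355, 0.226 and 0.216 in WT and 0.167, 0.244 and 0.317 in HIRE1del/del, each best with its own number, so the numbers were taken to pair the arches. Libraries of the same number did not pair as a set across genotypes, within an arch (-0.126 to 0.191) or between arches (-0.186 to 0.232), or across stages (-0.298 to 0.166). Replicate 3 alone was best matched by its own number in every pair of groups across genotypes, at 0.111 to 0.232. What these libraries shared was not tested.

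The 10 genes and the other gene lists were chosen with earlier results of these data known. All 10 genes are named, and of each other list the up to 4 called genes with the largest log2 fold change, plus any others named to complete a count. Some genes that this rule would name are not reported here. The 10 genes most correlated with the mean standardised log2 CPM (prior count 2) of the set were also named.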

Additional observations from a re-analysis of the deposited data

How the results depend on the processing

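The result stayed the same in 110 of 111 alternative settings. For counts of the 10 genes called this meant within 1.5 times the main value, and for the dissected over sorted level within its SD. The exception was the pinna at E12.5 against sorted PA2, where limma-voom called 3 genes in place of 5. The cause was not tested. Of 429 refits of single called genes, 422 kept direction and call, 7 lost the call and 0 reversed. The 7 were 6 of Krt19 and 1 of Krt5, given with the results. Leaving out 1 library at a time gave 5 to 6 calls between arches in WT, 5 to 7 in HIRE1del/del, 4 to 5 for E12.5 against E10.5, 9 for E14.5 against E12.5, 8 to 9 for E14.5 against E10.5, and 0 for genotype. With the replicate block, 7 genes were called between arches in either genotype, and the block changed no other call. Fits of Krt5 between the WT arches also passed the threshold with no filter (adjusted p = 0.0415), by DESeq2 (0.0239) and with only the groups compared (0.0162). The summed level of the 10 genes in dissected over sorted PA2 was 20.9 times with and without TMM scaling. Depth limits the statements on Krt4, Krt8 and Krt14 in the sorted cells, which rest on a few counts per library. The same holds for Krt5, Krt15, Cdh1 and Trp63 in sorted PA2 at E10.5.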
